A study of Mus musculus with 24 samples.

Results

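Epididymal adipose tissue of mice lacking GPR120 was compared with that of wild-type mice, all on normal diet (ND). GPR120, the product of the gene Ffar4, is a G protein-coupled receptor for long-chain fatty acids. The comparison held 6 of the 24 arrays of the series, chosen by their labels: 3 from GPR120 knockout (KO) mice on ND (mice 718, 719 and 720) and 3 from wild-type (WT) mice on ND (mice 686, 687 and 690). Both genotypes had a mixed 129/Sv and C57BL/6 background per the labels, and no mouse belonged to both groups. The other arrays were from fat of mice on high-fat diet (HFD) and from liver of the same mice, and are used below only to show where the ND fat comparison differs. The labels name no age, no littermate status and no position of the deletion.

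White fat stores triglyceride and releases fatty acids between meals. It holds adipocytes together with vessels, nerves, macrophages and the fibroblasts that lay down its matrix. The epididymal fat pad of male mice lies against the epididymis, the duct in which sperm mature and are stored. GPR120 is known in fat for its expression in adipocytes and macrophages and for its coupling to insulin and inflammatory signalling.

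Of 11613 genes tested, 25 (0.215%) were called higher and 4 (0.0344%) lower in KO than in WT fat. The falls of smallest p were those of Npy, which encodes the sympathetic and hypothalamic transmitter neuropeptide Y and was at least 36.5-fold lower in KO fat, and of the Golgi protein gene Tmem87a, 4.90-fold lower. The rise of smallest p was that of the immune adaptor gene Pik3ap1, and 4 genes of an extracellular matrix list, Fbln2, Fbln5, Lama4 and Sparc, were among the 25. Signals of epididymis genes were among the brightest on all 6 arrays, and those of sperm genes were high on the WT arrays of mice 686 and 690 only.

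Signals below are in intensity units after the authors' scaling, listed in the order of mouse numbers 718, 719 and 720 for KO and 686, 687 and 690 for WT. Differences are log2 of KO over WT ± SE from a limma fit, so positive values are higher in KO fat. A gene was called where its Benjamini-Hochberg adjusted p over all genes lay under 0.05. At an unadjusted limma p under 0.05, 8.9% of all genes were higher and 5.02% lower. Counts of list members at that p stand against these shares. No label says whether the animals of a group came from separate litters, and 3 arrays per group limit the precision of every value.

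The promoters of the 3 genes of smallest p follow as RefSeq gives them on GRCm38.p6, to show the start regions of the genes that the results below describe first in each direction. Npy lies at chr6:49822460-49822759 on the plus strand, Tmem87a at chr2:120404067-120404366 on the minus strand and Pik3ap1 at chr19:41385053-41385352 on the minus strand. Each run of 300 bases spans the annotated transcription start, with most of it before the start. Capitals mark the letters of a GC box (GGGCGG), of an ETS factor core motif (CCGGAA) and of a TATA-like box (ATAAAA), searched on both strands, with no overlap between motifs.
Npy: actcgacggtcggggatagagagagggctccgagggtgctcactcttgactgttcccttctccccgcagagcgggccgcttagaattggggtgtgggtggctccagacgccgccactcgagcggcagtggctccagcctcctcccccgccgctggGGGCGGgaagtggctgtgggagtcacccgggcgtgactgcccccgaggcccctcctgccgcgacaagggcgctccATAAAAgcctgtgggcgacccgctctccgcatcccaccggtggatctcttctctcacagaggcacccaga
Tmem87a: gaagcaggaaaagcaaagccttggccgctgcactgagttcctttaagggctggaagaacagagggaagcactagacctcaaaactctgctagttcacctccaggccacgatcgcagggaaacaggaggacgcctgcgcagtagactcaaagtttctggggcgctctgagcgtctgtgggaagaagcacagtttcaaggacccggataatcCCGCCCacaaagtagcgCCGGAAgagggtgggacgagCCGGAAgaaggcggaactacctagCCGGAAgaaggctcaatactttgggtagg
Pik3ap1: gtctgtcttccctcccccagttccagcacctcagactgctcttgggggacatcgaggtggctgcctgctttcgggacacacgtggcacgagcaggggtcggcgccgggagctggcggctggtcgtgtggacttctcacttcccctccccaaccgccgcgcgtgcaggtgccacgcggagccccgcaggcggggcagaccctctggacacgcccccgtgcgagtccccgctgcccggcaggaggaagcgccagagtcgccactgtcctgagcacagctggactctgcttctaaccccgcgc
The Npy run held 1 GC box and 1 TATA-like box, the Tmem87a run 1 GC box and 3 ETS motifs, and the Pik3ap1 run none of the 3 motifs. Of 32851 promoter windows of the same length in RefSeq, 35.7% held the GC box, 14.9% the ETS motif and 18.5% the TATA-like box.

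The arrays were first set against the label of the tissue. Adipocyte transcripts were bright on all 6 arrays, as their defining markers Adipoq and Fabp4 show. Adipoq, which encodes the adipocyte hormone adiponectin, had signals of 5396, 5674 and 4770.1 in KO fat, against 3799.9, 5771 and 6654 in WT fat. Fabp4, the fatty acid-binding protein of adipocytes, had 8209.6, 8995 and 7261 in KO fat, against 6177, 9388 and 10466 in WT fat, and for both genes the ranges of the groups overlapped. Epididymis transcripts were as bright. Of 32 epididymis epithelium genes 19 were on the array and 18 passed the filter on dim genes. The summed signal of the 19 was 73787, 77576 and 63339 on KO arrays and 54705, 82538 and 83706 on WT arrays. On HFD the same sum was 55.8 to 5506 on KO arrays and 58.7 to 102 on WT arrays.

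For the 4 brightest epididymis genes the ranges of KO and WT arrays overlapped. Lcn5, an epididymal lipocalin, had signals of 8334, 8712 and 6872 in KO fat, against 6229.8, 9422 and 10683 in WT fat. Gpx5, the secreted glutathione peroxidase of the epididymis, had 6484, 7056 and 5612 in KO fat, against 4935, 7367 and 8196 in WT fat. The protease inhibitor gene Spink8 had 6115, 6624 and 5322 in KO fat, against 4928, 7466 and 8039 in WT fat. Adam7, a metalloprotease-family gene of the epididymis, had 6179.5, 6582 and 5175 in KO fat, against 4089, 7142 and 7043 in WT fat. The lowest value of each of the 4 was on the array of WT mouse 686. By limma no epididymis gene was called and none had an unadjusted p under 0.05, against 1034 genes (8.9%) higher and 583 (5.02%) lower at that p over all genes tested. The median log2 difference was 0.01.

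General epithelium genes, 21 of which were tested, were bright on all 6 arrays too, with sums of 15873, 17315 and 14856 on KO arrays and 13173, 17441 and 17014 on WT arrays. Spint2, a protease inhibitor gene of epithelia, had 2649, 2959.5 and 2483 in KO fat, against 2196, 2895 and 3199 in WT fat. The keratin gene Krt18 had 2098, 2379 and 2086 in KO fat, against 1642, 2637 and 2497 in WT fat. Its partner Krt8 had 1437, 1589 and 1359.7 in KO fat, against 1150.3, 1604 and 1503 in WT fat. For these 3 genes the groups overlapped. Epcam, an epithelial adhesion gene, had 1823, 1899 and 1607 in KO fat, against 1550.5, 1915 and 1950.0 in WT fat, with overlap as well. Again none was called or had an unadjusted p under 0.05, and the median was -0.01.

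Sperm genes differed among the WT arrays. The summed signal of 38 sperm and spermatid genes was 2492, 2087 and 1923 on KO arrays, and 46707, 2276 and 24212 on WT arrays, so that WT mouse 687 lay within the KO range and WT mice 686 and 690 lay far above it. Prm1, which encodes a protamine that packs sperm DNA, had signals of 366, 266 and 205 in KO fat, against 4371, 451 and 4617 in WT fat. Prm2, the other protamine gene, had 438, 303 and 365 in KO fat, against 4437, 255 and 3720.0 in WT fat. In both genes the WT arrays of mice 686 and 690 stood apart from the other 4. The transition protein gene Tnp1, whose product precedes the protamines, had 122, 79.4 and 54.5 in KO fat, against 4411, 127 and 2827 in WT fat. Ldhc, the lactate dehydrogenase of sperm, had 106, 48.6 and 43.1 in KO fat, against 3841, 141 and 2491 in WT fat. The WT array of mouse 687 lay above the highest KO array for Prm1, Tnp1 and Ldhc and below the lowest for Prm2, in each case far nearer to the KO arrays than to the other WT arrays.

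**Figure D1:**
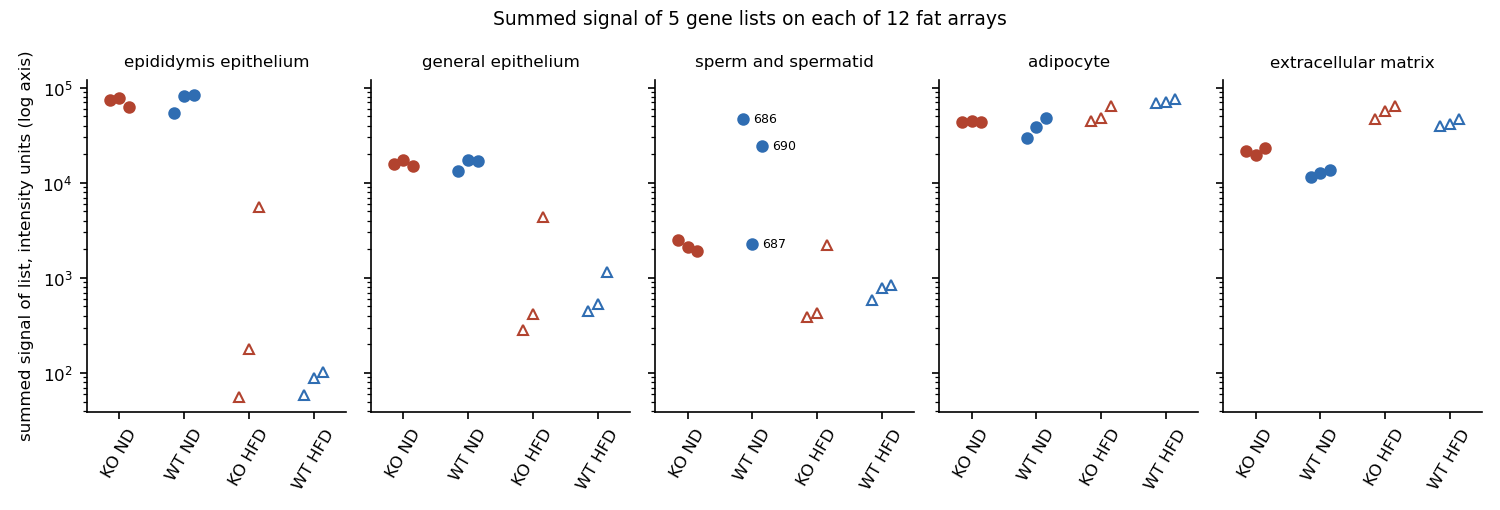
Summed signal of 5 gene lists (log axis, intensity units) on the 12 fat arrays; filled circles are KO ND and WT ND mice in order of number, open triangles are KO HFD and WT HFD mice from the lowest to the highest sum. Epididymis sums lie at 63339 to 77576 on KO ND and 54705 to 83706 on WT ND arrays, and the sperm sums of WT mice 686 and 690 stand above those of all other arrays.

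None of the 19 sperm genes tested was called, 9 were lower and 0 higher at an unadjusted p under 0.05, and the median log2 difference was -2.43. The 4 of smallest p are given as values. Akap3, a scaffold gene of the sperm tail, had 17.0, 14.7 and 16.2 in KO fat, against 1883, 41.0 and 784 in WT fat (at least 20.3-fold lower, adjusted p = 0.118). Tssk1, a kinase gene of spermatids, had 13.65, 13.3 and 16.7 in KO fat, against 433, 27.5 and 117 in WT fat (at least 5.78-fold lower). Both bounds were set against the filter level of 19.3 units, under which the KO signals lay. Tcp11 differed by -1.95 ± 0.64 and Gapdhs, the glycolytic enzyme of sperm, by -2.66 ± 0.93. Tcp11 had 33.6, 25.5 and 26.3 in KO fat, against 282, 32.15 and 144 in WT fat. Gapdhs had 38.7, 43.4 and 47.1 in KO fat, against 1017, 56.8 and 347 in WT fat. Limma adjusted p of Tssk1, Tcp11 and Gapdhs lay between 0.126 and 0.24. The lowest WT signal of each was on the array of mouse 687. Without WT mouse 687, 8 of the 19 were called lower and 0 higher, against 2.41% lower and 0.964% higher over all genes.

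Array medians were 22.0, 21.4 and 23.0 units on KO arrays and 25.6, 23.2 and 25.7 on WT arrays, without overlap. The KO arrays correlated among themselves with Spearman's rho of 0.982 to 0.985 over all genes, the WT arrays with 0.910 to 0.961, and KO with WT arrays with 0.889 to 0.974. WT mouse 687 had a rho of 0.973, 0.974 and 0.964 with KO mice 718, 719 and 720. Its rho was lower with the other WT arrays, at 0.910 with mouse 686 and 0.961 with mouse 690. The log2 ratio of the 3' to the 5' control probe sets of Actb, a sign of RNA quality, was 0.723 to 0.851 on KO arrays and 0.879 to 0.918 on WT arrays. The same ratio for Gapdh was -0.482 to -0.384 on KO arrays and -0.412 to -0.336 on WT arrays, which overlapped. The part that the gap in the Actb ratio, or the sperm and epididymis transcripts, had in the results below was not tested. In a bulk tissue, fewer cells of a type and less RNA per cell cannot be told apart.

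Ffar4 itself was read by 1 probe set, with signals of 34.2, 33.7 and 35.7 in KO fat, against 62.0, 58.3 and 73.7 in WT fat. All 3 KO arrays lay below all 3 WT arrays. The difference of -0.90 ± 0.21 (1.86-fold lower) did not pass over all genes (limma adjusted p = 0.111; 0.0605 to 0.73 over the alternatives). On HFD the signals were 23.1 to 30.5 on KO arrays and 97.3 to 171 on WT arrays, a difference of -2.27 (adjusted p = 0.000215). The difference between the diets was 1.37 ± 0.30 (adjusted p = 0.0175). The labels do not place the deletion in the gene, so a signal that this probe set still reads in KO fat is no check of the genotype.

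Of the 29 called genes, 23 differed by at least 2-fold. The KO and WT arrays of all 29 did not overlap, while over all genes every KO array was above every WT array for 16.1% and below for 7.11%. The median difference of all genes was 0.07.

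**Figure D2:**
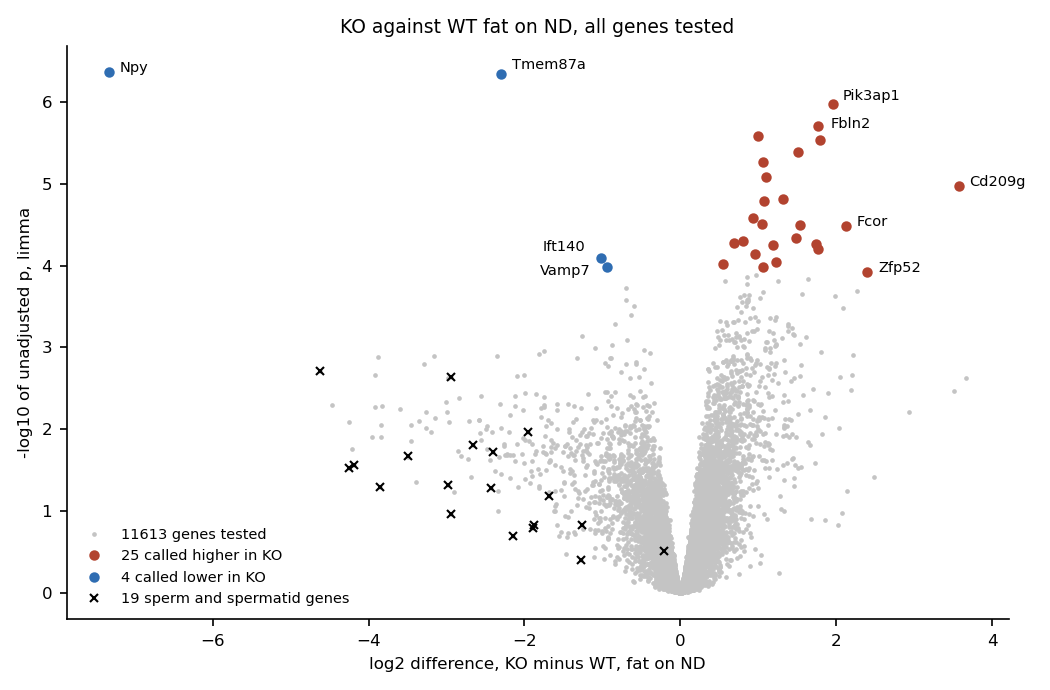
Log2 difference (KO minus WT fat on ND) against -log10 of the unadjusted limma p for the 11613 genes tested; red points are the 25 genes called higher, blue points the 4 called lower and crosses the 19 sperm and spermatid genes. Npy (-7.32) and Tmem87a (-2.29) have the smallest p, and no sperm gene is called.

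Among the genes that fell, Npy had signals of 3.14, 2.53 and 10.7 in KO fat, against 716, 849.7 and 577 in WT fat. All 3 WT arrays, that of mouse 687 with few sperm transcripts included, were bright, and all 3 KO arrays lay under the filter level of 19.3 units. The fitted difference of -7.32 ± 0.70 (adjusted p = 0.00263) depends on the floor set for dim values, so the fall is given as at least 36.5-fold. On HFD the signals were 6.85 to 50.1 on KO arrays and 9.26 to 20.4 on WT arrays, and the difference of 0.63 was not called (adjusted p = 0.565). Among the 12 fat arrays, the 3 WT ND arrays were the ones with bright Npy signals.

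Of 6 neural and Schwann cell genes tested, Npy was the 1 called. Without the filter on dim genes, 2 of 20 were called lower and 0 higher, with a median of -0.23. In that fit 5 of 18193 genes were called lower. Stmn2, a neuronal microtubule regulator gene, had 29.2, 30.6 and 28.8 in KO fat, against 40.3, 58.7 and 40.5 in WT fat (-0.63 ± 0.25, adjusted p = 0.294). Vip, which lay under the filter and is named here after its values were seen, had 128, 139 and 99.0 in KO fat, against 31.8, 69.0 and 59.7 in WT fat. The median of the 6 was -0.01, and the summed signal of the 20 genes on the array was 520.2 to 551 on KO and 1115 to 1393 on WT arrays, Npy included. Of these sums Npy alone gave 3.14, 2.53 and 10.7 on KO arrays and 716, 849.7 and 577 on WT arrays. With Npy taken out, the sums of the groups overlapped.

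Tmem87a, a membrane protein gene of the Golgi apparatus, had 40.1, 51.8 and 43.4 in KO fat, against 163, 265 and 247 in WT fat. It fell by 2.29 ± 0.22 on the log2 scale (4.90-fold, adjusted p = 0.00263). The WT arrays stood above the KO arrays by a wide gap. The HFD arrays lay near the KO ND level, at 33.2 to 42.8 on KO arrays and 37.7 to 54.9 on WT arrays. Ift140, a subunit of the transport complex of cilia and flagella, had 140.4, 131 and 124 in KO fat, against 301, 197 and 323 in WT fat (-1.02 ± 0.17, adjusted p = 0.0387). Its lowest WT signal was on the array of mouse 687. Vamp7, a SNARE gene of late endosomal and lysosomal membrane fusion, had 257, 288 and 240.4 in KO fat, against 434, 609.7 and 475 in WT fat (-0.94 ± 0.16, adjusted p = 0.0434), and there mouse 687 had the highest signal.

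Among the genes that rose, Pik3ap1 had the smallest p. It encodes an adaptor that links B cell and Toll-like receptors to phosphoinositide 3-kinase. Its signals were 87.1, 81.6 and 80.1 in KO fat, against 18.9, 21.8 and 23.7 in WT fat, a difference of 1.95 ± 0.20 (3.87-fold, adjusted p = 0.00409). The 3 arrays of each group were close together. On HFD the signals were 588 to 1007 on KO arrays and 26.5 to 32.8 on WT arrays, a difference of 4.55 (adjusted p = 1.6e-06). Its other probe set differed by -0.16. Pik3ap1 lies on chromosome 19 with 37 protein-coding genes between it and Ffar4 in the RefSeq gene table.

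Matrix genes formed the list with the most calls. Of 38 extracellular matrix genes, all tested, 4 were called higher and 0 lower, 28 were higher and 0 lower at an unadjusted p under 0.05, and for 32 every KO array lay above every WT array, against 16.1% of all genes. The median difference was 0.86, and the summed signal was 21793, 19768 and 23088 on KO and 11488, 12630.3 and 13682 on WT arrays, which did not overlap. The 4 calls became 1 without KO mouse 718 or KO mouse 720, 2 without WT mouse 686, 10 without WT mouse 687, 0 without WT mice 686 and 690, 2 without the filter on dim genes, 7 after quantile normalization and 0 with the mean of each gene's probe sets, and 0 were lower in any of these fits.
Fbln2, a fibulin gene of basement membranes and elastic fibres, had 206, 182 and 225 in KO fat, against 51.6, 53.3 and 77.6 in WT fat (1.77 ± 0.20, adjusted p = 0.00569). Lama4, the laminin alpha-4 chain of vessel and adipocyte basement membranes, had 289, 263 and 301 in KO fat, against 136, 119 and 154 in WT fat (1.07 ± 0.13, adjusted p = 0.0079). In both genes every KO array was above every WT array by a clear gap. Sparc, a collagen-binding glycoprotein gene, was the brightest of the 4, with 2791, 2449.8 and 3651 in KO fat, against 1359.8, 1297 and 1619 in WT fat (1.04 ± 0.16, adjusted p = 0.0238). Fbln5, a fibulin gene needed for elastic fibre assembly, had 459, 309 and 442 in KO fat, against 172, 163 and 247 in WT fat (1.06 ± 0.18, adjusted p = 0.0434). In each of the 4 genes KO mouse 719 had the lowest KO signal, which still lay above every WT array.

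Among fibroblast genes and secreted matrix regulators, Dpt and Htra3 rose. Dpt, dermatopontin of the dermal and adipose matrix, had 972, 927 and 1705 in KO fat, against 380.4, 339.9 and 480.2 in WT fat (1.54 ± 0.23, adjusted p = 0.0238) and was the 1 called among 14 fibroblast and adipocyte progenitor genes, of which 7 were higher and 0 lower at an unadjusted p under 0.05 (median 0.56). The others of smallest p, Clec3b (1.02 ± 0.29), Pdgfrb (0.61 ± 0.19) and Mfap5 (1.08 ± 0.37), had limma adjusted p of 0.168 to 0.234. Htra3, a secreted serine protease gene, had 449, 359.9 and 437 in KO fat, against 139, 172 and 229 in WT fat (1.23 ± 0.21, adjusted p = 0.0417). Of 23 genes of matrix assembly and turnover none was called and 8 were higher and 0 lower at an unadjusted p under 0.05 (median 0.38). Their values included the aggrecanase gene Adamts5 at 0.99 ± 0.32 and the collagen crosslinking enzyme genes Lox at 0.58 ± 0.20 and Loxl1 at 0.71 ± 0.25, with adjusted p of 0.202 to 0.243, and the stromelysin gene Mmp3 was at least 1.22-fold higher (adjusted p = 0.223).

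**Figure D3:**
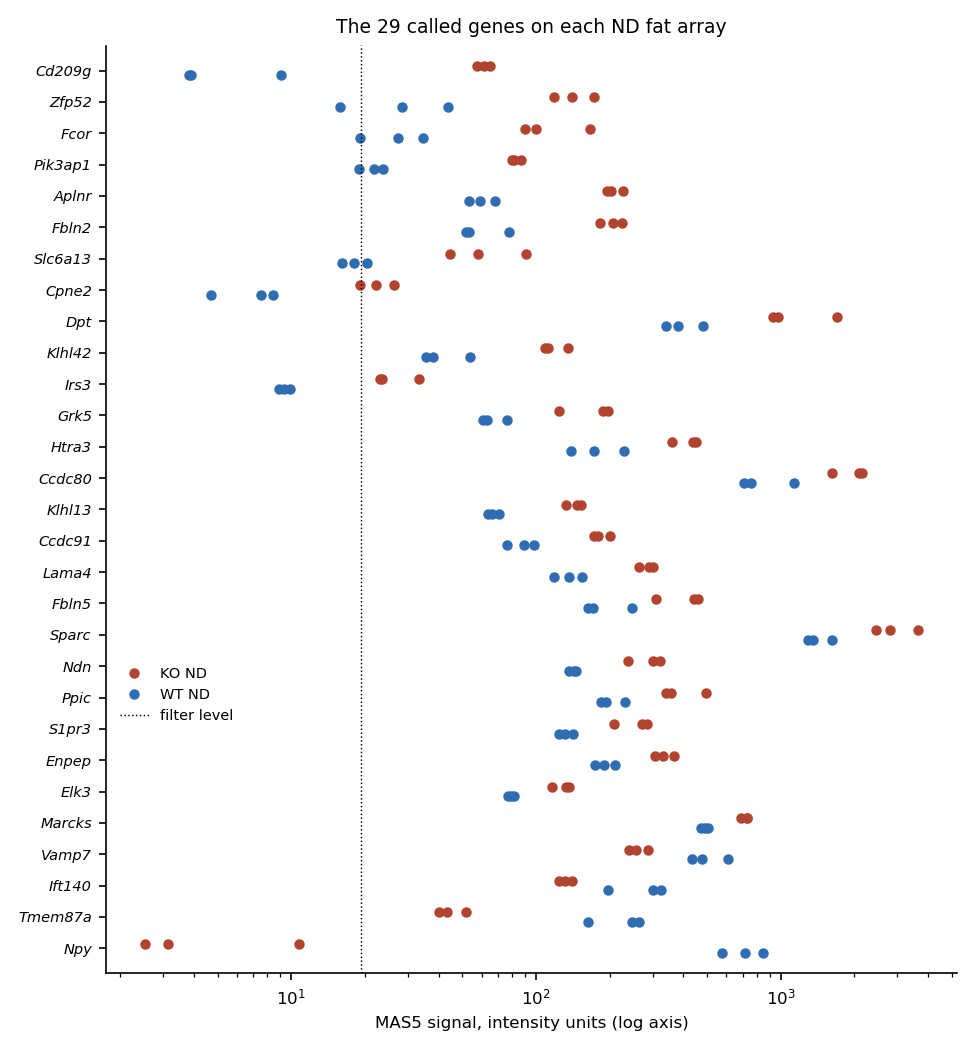
MAS5 signal (log axis, intensity units) of the 29 called genes on each ND fat array, red for the 3 KO mice and blue for the 3 WT mice, ordered by the log2 difference; the dotted line is the filter level of 19.3 units. The groups do not overlap for any of the 29, and 4 genes at the bottom of the plot are lower in KO fat.

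Vessel and receptor genes were also among the rises. Aplnr, the receptor for the vascular peptide apelin, had 194, 202 and 228 in KO fat, against 67.9, 53.2 and 59.3 in WT fat (1.79 ± 0.21, 3.47-fold, adjusted p = 0.00569). It was the 1 called among 20 endothelial genes, 7 of which were higher and 0 lower at an unadjusted p under 0.05 (median 0.39). The angiopoietin receptor gene Tek differed by 0.58 ± 0.12, the vascular secreted factor gene Egfl7 by 0.59 ± 0.16 and the tight junction gene Cldn5 by 0.86 ± 0.24, with adjusted p of 0.081 to 0.162. S1pr3, a receptor for sphingosine 1-phosphate, had 284, 272 and 209 in KO fat, against 132, 142 and 124 in WT fat (0.93 ± 0.14, adjusted p = 0.0237). Grk5, a kinase that desensitises G protein-coupled receptors, had 198, 187 and 124 in KO fat, against 60.8, 76.2 and 63.1 in WT fat (1.32 ± 0.18, adjusted p = 0.0156). Enpep, the aminopeptidase that trims angiotensin II, rose by 0.81 ± 0.13 and Elk3, an ETS transcription factor gene, by 0.69 ± 0.11 (adjusted p = 0.0313 each).

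Genes of adipocyte and insulin biology contributed Fcor, Irs3 and Ccdc80. Fcor, a corepressor of the transcription factor Foxo1 in mouse fat, had 90.3, 99.7 and 167 in KO fat, against 27.4, 19.1 and 34.6 in WT fat (2.13 ± 0.32, 4.36-fold, adjusted p = 0.0238). Irs3, an insulin receptor substrate of rodent fat, had 23.6, 23.1 and 33.2 in KO fat, against 8.92, 9.37 and 9.85 in WT fat, at least 1.36-fold higher (adjusted p = 0.0313). With a floor of 16 units Irs3 was not called (limma adjusted p = 0.164). It was the 1 called of 26 insulin signalling genes (median 0.08). Of these, 3 were higher and 1 lower at an unadjusted limma p under 0.05, against 8.9% and 5.02% of all genes. The adaptor gene Grb14 differed by 0.54 ± 0.13, the regulatory subunit gene Pik3r1 by -0.71 ± 0.23 and Phldb1 by 0.63 ± 0.21, with adjusted p of 0.111 to 0.219. Ccdc80, a secreted protein gene of adipose tissue, had 2145, 1616 and 2097 in KO fat, against 706, 757 and 1129 in WT fat (1.20 ± 0.19, adjusted p = 0.0313) and was the 1 called of 17 adipokine genes (median 0.50).

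The other adipokine and adipocyte genes of smallest p did not pass. Lep, the leptin gene, had 315, 157 and 920.3 in KO fat, against 19.5, 7.38 and 155 in WT fat (3.66 ± 0.94, adjusted p = 0.127). Its KO signals spread widely, and WT mouse 690 lay just under KO mouse 719. The chemerin gene Rarres2 had 802, 681 and 788 in KO fat, against 402, 438 and 421 in WT fat (adjusted p = 0.0687) and the retinol-binding protein gene Rbp4 had 1333, 933 and 1705 in KO fat, against 348, 504 and 768 in WT fat (adjusted p = 0.203). Of 25 adipocyte genes 0 were called by limma, and 11 were higher and 0 lower at an unadjusted p under 0.05 (median 0.53). Besides Lep, they included Nnat (2.19 ± 0.59), the activin-type receptor gene Acvr1c (1.38 ± 0.39) and the adipogenic nuclear receptor gene Pparg (0.66 ± 0.19), with adjusted p of 0.149 to 0.173. The adipocyte sum was 44041, 44886 and 43164 on KO and 29431, 38912 and 48014 on WT arrays, which overlapped.

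Macrophage genes were mostly higher without a call. Of 30 tested, 27 had a positive difference. The differences ran from -1.60 to 1.56 with a median of 0.50, against a median of 0.07 for all genes. At an unadjusted limma p under 0.05, 9 were higher and 0 lower, against 8.9% higher and 5.02% lower over all genes. The summed signal was 10546, 9500.5 and 12081 on KO and 6970.4, 7386 and 7561 on WT arrays, which did not overlap. The colony-stimulating factor 1 receptor gene Csf1r had 1415, 1190.3 and 1598 in KO fat, against 784, 848 and 963 in WT fat (0.69 ± 0.14, adjusted p = 0.081). The adhesion receptor gene Adgre4 had 27.4, 28.9 and 30.5 in KO fat, against 8.05, 9.15 and 12.9 in WT fat (adjusted p = 0.0641), the lysosomal membrane protein gene Laptm5 had 239.5, 235 and 325 in KO fat, against 142, 145 and 141 in WT fat and the complement gene C1qa had 574, 552 and 681 in KO fat, against 373, 342 and 399 in WT fat (adjusted p = 0.141 and 0.222). For these 4 the groups did not overlap. For 17 of the 30 every KO array lay above every WT array, against 16.1% of all genes. Of 18 lipid-associated macrophage genes 0 were called and 3 were higher and 0 lower at an unadjusted p under 0.05, with the integrin gene Itgax at least 1.41-fold higher and the fatty acid-binding protein gene Fabp5 at 0.57 ± 0.21 (adjusted p = 0.247 and 0.259). Cd209g, a C-type lectin receptor gene outside these lists, was called, with 65.1, 57.2 and 61.6 in KO fat, against 3.89, 3.83 and 9.12 in WT fat, at least 3.17-fold higher (adjusted p = 0.0125). With a floor of 16 units it was not called (limma adjusted p = 0.075).

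**Figure D4:**
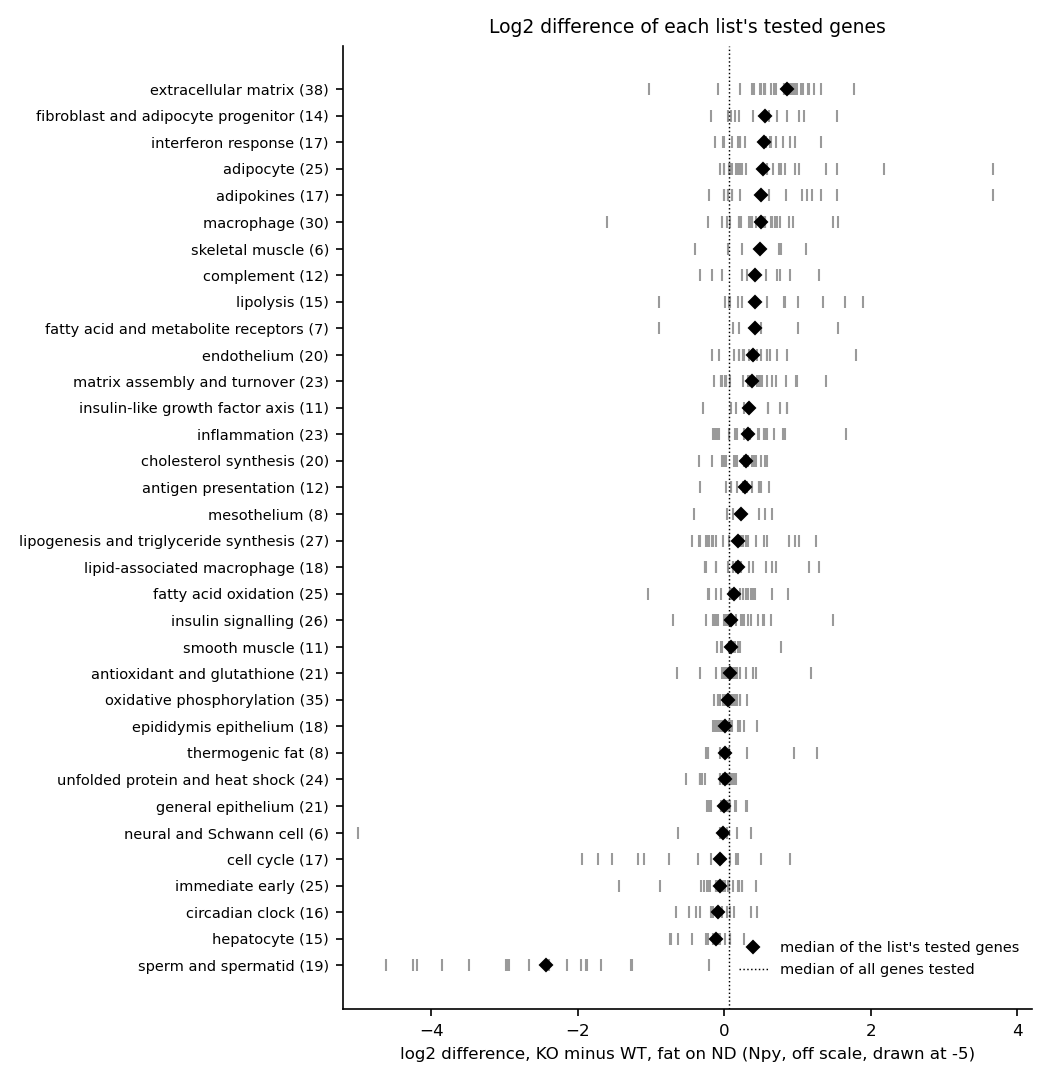
Log2 difference (KO minus WT fat on ND) of the tested genes of each list with at least 5 of them, as ticks, with the list's median as a diamond and the number of genes in brackets; the dotted line is the median of all genes (0.07), and Npy is drawn at the left edge. Extracellular matrix has the highest median (0.86) and sperm and spermatid the lowest (-2.43).

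Lipid metabolism held no call. Its counts stand against 8.9% of all genes higher and 5.02% lower at an unadjusted limma p under 0.05. Of 15 lipolysis genes 6 were higher and 1 lower at an unadjusted p under 0.05 (median 0.42). G0s2, which inhibits adipose triglyceride lipase, had 708, 351 and 661 in KO fat, against 208, 168 and 154 in WT fat (1.64 ± 0.29, adjusted p = 0.0528). Abhd5, the activator of that lipase, had 214, 233 and 165 in KO fat, against 488, 316 and 338 in WT fat (-0.89 ± 0.21, adjusted p = 0.111). The monoglyceride lipase gene Mgll differed by 0.81 ± 0.20 and the prostaglandin receptor gene Ptger3 by 1.90 ± 0.52 (adjusted p = 0.111 and 0.15). Of 27 genes of lipogenesis and triglyceride synthesis 7 were higher and 0 lower at an unadjusted p under 0.05 (median 0.19), with Thrsp at 1.25 ± 0.33, the pentose phosphate enzyme gene Pgd at 0.58 ± 0.16, Fads3 at 1.01 ± 0.31 and the triglyceride-forming enzyme gene Dgat2 at 0.97 ± 0.32 (adjusted p of 0.137 to 0.217). Fatty acid oxidation (25 tested) had 3 higher and 0 lower, with Decr1 at 0.65 ± 0.16 (adjusted p = 0.118), and cholesterol synthesis (20 tested) had 3 higher and 0 lower, with Nsdhl at 0.58 ± 0.10 (adjusted p = 0.0528) and Hmgcs1 at 0.55 ± 0.17 (adjusted p = 0.187). Among 7 fatty acid and metabolite receptor genes Ffar4 was lower and the succinate receptor gene Sucnr1 higher (302, 209 and 463 in KO fat, against 91.3, 84.2 and 149.6 in WT fat) at that p, and neither was called (adjusted p = 0.113 for Sucnr1).

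Immune and growth factor lists were likewise without calls. Over all genes 8.9% were higher and 5.02% lower at an unadjusted limma p under 0.05, and the inflammation count lay near that share. Of 23 inflammation genes 2 were higher and 0 lower at an unadjusted p under 0.05, the chemokine gene Ccl8 (0.81 ± 0.23) and the chemokine gene Ccl7, given without a fold because both group means lay under the filter level (11.2, 13.2 and 21.3 in KO fat, against 2.52, 5.53 and 7.19 in WT fat). Of 17 interferon response genes 5 were higher and 0 lower, among them Gbp2 (0.90 ± 0.27) and the chemokine gene Cxcl10 (at least 1.48-fold higher). Of 12 antigen presentation genes 3 were higher and 0 lower, with the class II gene H2-Aa at 0.47 ± 0.17. Of 12 complement genes 5 were higher and 0 lower, with the complement inhibitor gene Cd59a at 0.90 ± 0.21 and the protease gene C1s1 at 0.57 ± 0.17. Of 11 genes of the insulin-like growth factor axis 4 were higher and 0 lower, including the protease gene Htra1 (0.86 ± 0.15, adjusted p = 0.0522) and the binding protein genes Igfbp4 (0.76 ± 0.16) and Igfbp5 (0.86 ± 0.26). Limma adjusted p of the others named here lay between 0.0911 and 0.24.

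Cell cycle genes also differed among the WT arrays. Of 17 tested, 1 was higher and 3 lower at an unadjusted p under 0.05. The cyclin gene Ccnb2 had 17.6, 24.1 and 24.9 in KO fat, against 275, 23.2 and 94.2 in WT fat and the mitotic kinase gene Aurka had 19.9, 18.9 and 18.1 in KO fat, against 203, 14.6 and 83.0 in WT fat, so that WT mouse 687 lay within the KO range for Ccnb2 and below it for Aurka, and WT mice 686 and 690 lay above it for both. The replication helicase gene Mcm6 had 76.1, 73.9 and 78.3 in KO fat, against 55.4, 27.2 and 44.8 in WT fat (0.90 ± 0.30). Limma adjusted p of the 3 was 0.214 to 0.302. With all 6 arrays 0 of the 17 were called, and without WT mouse 687 4 were called lower and 0 higher, against 2.41% lower and 0.964% higher over all genes. The fit without mouse 687 keeps only the WT arrays that lay above the KO range for Ccnb2 and Aurka, so nothing is read from this count.

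The remaining lists lay near the median of all genes or had few members. Oxidative phosphorylation (35 tested) had 1 gene higher and 0 lower at an unadjusted p under 0.05 and a median of 0.05, and antioxidant and glutathione genes (21 tested) had 1 and 0, with 0.08. The unfolded protein and heat shock list (24 tested) had 0 higher and 2 lower, with Hsp90aa1 at -0.33 ± 0.09 (adjusted p = 0.167) and a median of 0.00. The clock list (16 tested) had 0 and 1, Cry1 at -0.66 ± 0.23 (adjusted p = 0.243), with a median of -0.09. No member had an unadjusted p under 0.05 among immediate early (25 tested, median -0.07), hepatocyte (15, -0.12), smooth muscle (11, 0.08), mesothelium (8, 0.23), thermogenic fat (8, 0.01), skeletal muscle (6, 0.49) and lymphocyte genes (3, 0.21).

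The other called genes belong to no single group. Ndn, the imprinted growth-restraining gene necdin, had 302, 237 and 319.9 in KO fat, against 146, 143 and 136 in WT fat, without overlap (adjusted p = 0.00569). It was read by 8 probe sets, and the other 7 differed by -1.73 to 1.15. Klhl42, an adaptor gene of cullin ubiquitin ligases, had 112, 135 and 109 in KO fat, against 37.9, 53.7 and 35.4 in WT fat (1.51 ± 0.18, adjusted p = 0.00674). Klhl13, of the same family, had 147, 132 and 153 in KO fat, against 70.5, 63.8 and 66.2 in WT fat (1.11 ± 0.14, adjusted p = 0.0107), and the 3 arrays of each group were close together. Ccdc91, a gene of trans-Golgi transport, had 179, 172 and 200.3 in KO fat, against 76.3, 97.8 and 89.5 in WT fat (1.07 ± 0.15, adjusted p = 0.0156), and its other 3 probe sets differed by -1.86 to 0.30. Zfp52, a zinc finger gene, had 141, 119 and 173 in KO fat, against 43.7, 28.4 and 15.8 in WT fat (2.40 ± 0.42, adjusted p = 0.0474).

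Slc6a13, a transporter of GABA and taurine, was at least 3.20-fold higher and Cpne2, a calcium-dependent membrane-binding copine, at least 1.16-fold (adjusted p = 0.0336 and 0.0313). Their KO signals were 58.1, 44.4 and 91.0 and 26.3, 22.3 and 19.1, and every WT signal of both lay between 4.72 and 20.4. With a floor of 16 units Cpne2 was not called (limma adjusted p = 0.244). Ppic, the prolyl isomerase cyclophilin C, rose by 0.96 ± 0.16 and Marcks, a substrate of protein kinase C, by 0.55 ± 0.09 (adjusted p = 0.0367 and 0.0433). Other probe sets also ran the other way for Lama4, S1pr3, Sparc and Htra3, whose lowest differed by -0.54, -0.22, -0.12 and -0.41.

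Just outside the threshold, 8 genes in each direction had the smallest p. Higher in KO fat without a call were Dock10 (0.98 ± 0.17), Htra1, G0s2, Nsdhl, Mmd (1.25 ± 0.22), Aff1 (0.86 ± 0.16), Srpx2 (at least 2.60-fold) and Dram1 (1.06 ± 0.20), with limma adjusted p of 0.0507 to 0.0641. Lower without a call were Taf15 (-0.70 ± 0.13), Tmem242 (-0.70 ± 0.13), Nup37 (-0.59 ± 0.12), Ybx3 (-0.63 ± 0.13), Atg9a (-0.84 ± 0.17), Exd1 (-1.26 ± 0.27), Dazap1 (-0.69 ± 0.15) and Dnajc28 (-0.87 ± 0.20), with 0.0611 to 0.0958.

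The number of calls depended on single arrays. Without WT mouse 687, the WT array with few sperm transcripts, 112 genes (0.964%) were called higher and 280 (2.41%) lower, and all 29 were still called. Of those 280, WT mouse 687 had the lowest WT signal in 274 and lay within or below the range of the KO arrays in 156. The 280 were called with that array left out, so these counts follow in part from its removal and nothing is read from them. Without WT mice 686 and 690, which leaves a lone WT array whose spread is assumed to be that of the other groups, 1 gene was called higher, the zinc finger gene Zfp945, and 1 lower, Tmem87a. Zfp945, named after its values were seen, had 150.3, 135 and 149 in KO fat, against 97.9, 3.95 and 5.32 in WT fat, and was not called with all arrays (adjusted p = 0.15). With the genes of the epididymis, sperm and general epithelium lists left out of the fit, 28 genes were higher and 4 lower, and all 29 were still called. That fit keeps the arrays and the signals of the 29 unchanged, so it cannot show what part these tissues had in the calls. Leaving out WT mouse 690 gave 28 higher and 2 lower, leaving out WT mouse 686 gave 8 and 3, and leaving out KO mouse 718, 719 or 720 gave 5, 16 or 7 higher and 2 lower each. Of the 29, 7 were still called without KO mouse 718, 16 without KO mouse 719, 9 without KO mouse 720, 9 without WT mouse 686, 20 without WT mouse 690 and 1 without WT mice 686 and 690.

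The same contrast on HFD used 6 other mice, and there 22.5% of the genes were called in either direction. The log2 Actb ratio was 0.622 to 0.799 on KO HFD and 1.13 to 1.68 on WT HFD arrays. Epididymis sums were far lower on HFD than on ND arrays, as given above. The part of these differences in the comparison of the diets was not tested. Of the 29 genes called on ND, 8 were called on HFD, 5 of them in the same direction. Pik3ap1 was higher on both diets, Zfp52 differed by 2.39 (adjusted p = 0.00277), Fbln2 by 0.93 (adjusted p = 0.00735), Marcks by 0.54 (adjusted p = 0.0026) and Enpep by 0.51 (adjusted p = 0.0147) on HFD. Called in the opposite direction there were Lama4 at -0.73 (adjusted p = 0.00331), Fbln5 at -1.23 (adjusted p = 0.0013) and Vamp7 at 0.58 (adjusted p = 0.0239). For 21 of the 29 the genotype difference was itself different between the diets, against 11.0% of all genes. The 29 were chosen by the ND part of that contrast, so nothing is read from the 21.

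**Figure D5:**
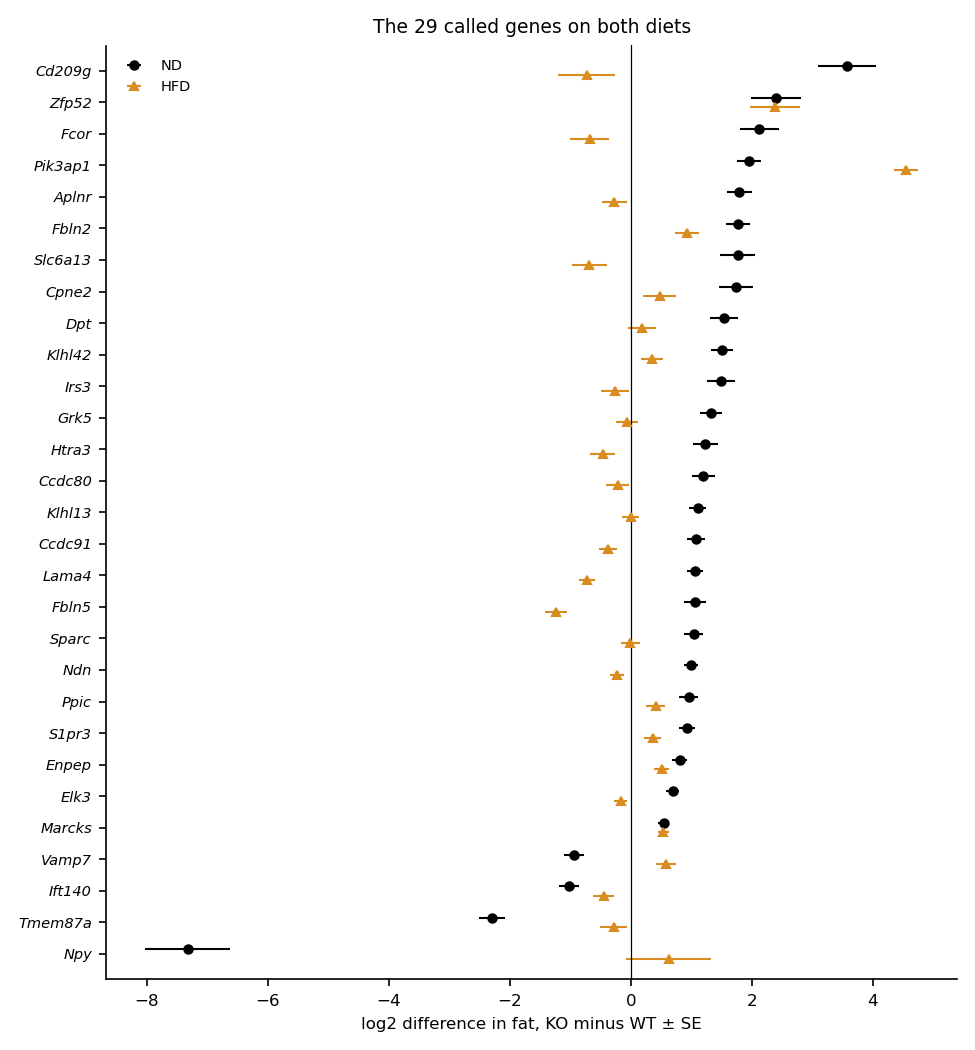
Log2 difference (KO minus WT) ± SE in fat of the 29 called genes, black circles on ND and orange triangles on HFD, 3 arrays per group. Zfp52 stands at 2.40 on ND and 2.39 on HFD and Pik3ap1 at 1.95 and 4.55, while Npy stands at -7.32 and 0.63 and Tmem87a at -2.29 and -0.29.

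Liver of the same 6 mice gave 24 of the 29 genes a test, and 4.71% of the 11125 genes tested in liver were called in either direction. Of the 24, 5 were called, each in the direction seen in fat. Pik3ap1 had 1165, 915 and 1031 in KO liver, against 98.5, 143 and 96.5 in WT liver (3.22 ± 0.18, adjusted p = 5.02e-07). Vamp7 had 506, 502 and 529 in KO liver, against 1247, 1006 and 1309 in WT liver (-1.20 ± 0.11, adjusted p = 5.83e-05), and Klhl42 had 52.4, 77.5 and 61.5 in KO liver, against 20.9, 22.6 and 36.2 in WT liver (1.29 ± 0.31, adjusted p = 0.0314). For these 3 the groups did not overlap in either tissue.
In liver Ccdc91 differed by 0.56 ± 0.14 (adjusted p = 0.0405) and Ift140 by -0.66 ± 0.17 (adjusted p = 0.0465). For Ccdc91 and Ift140 too the groups did not overlap in either tissue. Tmem87a had 12.6, 25.8 and 18.4 in KO liver, against 119, 113 and 104 in WT liver, without overlap and without a call (-2.62 ± 0.81, adjusted p = 0.0831). Npy lay under the filter in liver, at 21.4, 14.9 and 23.3 in KO liver, against 3.73, 16.3 and 32.2 in WT liver, where the groups overlapped. Both tissues come from the same animals and are not independent samples.

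By chromosome, 5 of the 29 (17.2%: Npy, Fbln2, Klhl42, Ccdc91 and Slc6a13) lie on chromosome 6, which held 607 (5.23%) of the genes tested. The spread of calls over chromosomes was not tested. Klhl42 and Ccdc91 have 1 protein-coding gene between them in the RefSeq gene table, as have Lama4 and Marcks on chromosome 10. Cd209g and Fcor on chromosome 8 have 9 between them. The other called pairs on a chromosome have 104 or more.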

How the data were processed

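The deposited values are MAS5 signals in intensity units of Affymetrix arrays, per the submitters' processing notes, which the authors had scaled to a common trimmed mean as the values show. No source used here names the MAS5 version. No further scaling was applied. Of 45101 probe sets, 64 were controls and 34945 carried 1 gene symbol in GEO's platform annotation (932 several, 9160 none). Signals under 1.08, the 10th percentile of the fat values, were set to that value before taking log2. Each of 18193 genes was read by its brightest probe set, and the 11613 genes whose mean over the 12 fat arrays reached 19.3 units, that of the median probe set, were tested. R 4.3.3 with limma 3.58.1 gave a fit of 4 group means to the 12 fat arrays, with a variance trend (8 residual and 3.16 prior degrees of freedom), with Benjamini-Hochberg adjustment over all genes tested, and the liver by the same steps. "At least" folds set the brighter mean against 19.3 units. Named genes were Ffar4, every called gene, the 8 of smallest p in each direction among the others, as many as 4 list members by smallest p, and the 4 brightest epididymis, sperm and epithelium genes. The comparison, the lists of genes and the alternatives were chosen with earlier results of these data known. Lists were described by counts and medians and were not tested. The fit was tested on simulated arrays with independent noise and the same spread in all groups. Those arrays held no split like that of the sperm transcripts among the WT arrays, so they do not test the fit under it.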

Additional observations from a re-analysis of the deposited data

Results flagged for a closer look

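The genotype difference in fat on ND was tested against that on HFD, as the ND difference minus the HFD difference in log2, with limma's adjusted p over all genes under 0.05. Genes that passed are given as values, and their ND part is the difference by which many of them were chosen. For Ffar4 the value was 1.37 (SE 0.30, adjusted p = 0.0175). Among the genes called lower on ND it was -7.95 (SE 0.99, adjusted p = 0.0033) for Npy, -2.01 (SE 0.31, adjusted p = 0.00524) for Tmem87a and -1.52 (SE 0.23, adjusted p = 0.00455) for Vamp7. The size for Npy rests on the floor set for dim values and is not a measured fold.

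Among the genes called higher on ND, Pik3ap1 had a negative value of -2.59 (SE 0.29, adjusted p = 0.00257). The matrix and fibroblast genes had 2.29 for Fbln5, 1.80 for Lama4, 1.70 for Htra3, 1.36 for Dpt and 1.05 for Sparc. The vessel, receptor and immune genes had 4.30 for Cd209g, 2.06 for Aplnr, 1.38 for Grk5 and 0.86 for Elk3. The size for Cd209g, like those for Irs3 and Slc6a13 below, rests on the floor set for dim values and is not a measured fold. The adipocyte and insulin genes had 2.80 for Fcor, 1.74 for Irs3 and 1.41 for Ccdc80. The others were 2.45 for Slc6a13, 1.45 for Ccdc91, 1.23 for Ndn, 1.16 for Klhl42 and 1.11 for Klhl13.

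Among named genes that were not called on ND, the adipocyte, adipokine and lipid genes had 3.35 for Nnat, 3.19 for Acvr1c, 2.51 for G0s2, 2.49 for Rbp4, 2.37 for Sucnr1, 1.78 for Pparg, 1.41 for Mgll, 1.39 for Phldb1, 1.05 for Decr1 and 0.93 for Rarres2. Endothelial genes had 2.17 for Cldn5, 1.69 for Egfl7 and 1.46 for Tek. The remaining positive values were 1.52 for Dram1, 1.28 for Igfbp4, 1.21 for Mmd, 1.15 for Taf15 and 0.80 for Htra1. Negative values were -5.92 for Akap3, -3.74 for Ccnb2, -0.87 for Nup37 and -0.81 for Dazap1. The sperm sums, epididymis sums and Actb ratios differ between the ND and HFD arrays, as given above. Their part in any of these values, those of Akap3 and Ccnb2 included, was not tested. The values of Npy, Cd209g, Irs3, Slc6a13 and Akap3 include a group whose mean signal lay under the filter level of 19.3 units, so their size depends on the floor set for dim values and is not a measured fold. With a floor of 16 units the ND difference of Cd209g was 1.94 in place of 3.57 and was not called (limma adjusted p = 0.075). Irs3 (0.71, adjusted p = 0.164) and Cpne2 (0.48, adjusted p = 0.244) also lost their ND calls with that floor. Groups of 3 arrays were not given a statistical test for an outlying array, and the fits that leave out 1 array are given with the alternatives.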

How the results depend on the processing

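No paired analysis was possible because KO and WT fat came from different mice with no shared replicate number. The 29 calls (25 higher, 4 lower) became 81 (75 and 6) after quantile normalization, 46 (38 and 8) with every single-symbol probe set, 18 (14 and 4) with probe sets averaged per gene, 18 (16 and 2) without the variance trend, 2 without WT mice 686 and 690, and 7 to 392 when 1 array was left out. Without the filter on dim genes 15 were higher and 5 lower. With a floor of 16 units 25 were higher and 4 lower, and 26 of the 29 were still called. Of the 29, 17 were called without the filter, 17 with the mean of probe sets, 12 in the 6 ND arrays alone, 18 without the trend, 1 without WT mice 686 and 690, and 7 to 29 with 1 array left out. Tmem87a was called in all 16 alternatives, and Npy, Aplnr and Klhl42 in all but the removal of WT mice 686 and 690. The 9 calls among list members, 4 of them in the extracellular matrix list, became 19 after quantile normalization, 4 with the mean of probe sets, 0 without WT mice 686 and 690, and 3 to 34 with 1 array left out, of which the matrix list held 7, 0, 0 and 1 to 10. The interaction had 848 calls with the mean of probe sets and 633 to 1509 with 1 array left out. With the mean of probe sets the difference reversed to -0.46 for Ccdc91, -0.28 for Mgll and -0.57 for Igfbp5, and without WT mice 686 and 690 to 0.38 for Aurka. The cause of these changes was not tested, beyond the fewer arrays or genes that an alternative holds. Over the alternatives the median of the extracellular matrix list was 0.66 to 0.93, of the macrophage list 0.29 to 0.59, of the adipocyte list 0.36 to 0.61 and of the sperm list -3.79 to -0.19. The 3 arrays per group limit the power, and signals under 19.3 units have little above background.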

Other observations

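The WT ND arrays stood apart from the other 9 fat arrays, by at least 2-fold between the nearest arrays, for 12 of the genes tested, under a criterion set once the values had been seen. They were above the others for Npy and Tmem87a. They were below the others for Adgre4, Aplnr, Cd209g, Cpne2, Fbln2, Fcor, Irs3, Orm1, Slc6a13 and Srpx2. Orm1, an acute phase protein gene, had 296 to 656 on KO ND, 74.7 to 132 on WT ND, 752 to 1776 on KO HFD and 854 to 1494 on WT HFD arrays. Aplnr had 194 to 228, 53.2 to 67.9, 1113 to 1468 and 1072 to 2078 in the same groups.

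By the same rule the KO ND arrays stood apart from the other 9 fat arrays for 0 genes. Across both diets 1 gene, Pik3ap1, had every KO array at least 2-fold above every WT array, and 0 genes had every KO array at least 2-fold below. Taf15, called in neither direction on ND, had 80.4, 81.9 and 74.7 against 114, 132 and 140.0 on ND (KO against WT) and 57.9 to 73.0 on KO against 227 to 251 on WT arrays on HFD, so that all 6 KO arrays lay below all 6 WT arrays. In liver on ND its difference was -0.89 ± 0.18, adjusted p = 0.0174.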
